A study of Mus musculus with 12 samples.

Results

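Adult cardiac sarcomere genes were followed across the hearts of diabetic and healthy, trained and sedentary mice. The set was given by name and held 10 genes: the thin filament genes Tnnt2, Tnni3, Tnnc1 and Tpm1, the thick filament genes Myl2, Myl3 and Mybpc3, the Z-disc genes Actn2 and Tcap, and Ttn, the elastic filament. Every probe set of the Affymetrix MG_U74Av2 array annotated to one of them was taken. Ttn had none in the annotation used and was skipped, so 9 genes with 1 probe set each were measured, among 12422 probe sets other than controls. All 9 passed the filter on low signals. The hearts came from male NMRI mice, an outbred strain, with an age of 10 to 15 weeks stated for all groups alike. Diabetic trained mice had received streptozotocin (180 mg/kg, a single injection), which destroys the insulin-producing cells of the pancreas and models type 1 diabetes, and were trained by treadmill running at 21 m/min and an incline of 2.5 degrees, 1 h a day and 5 days a week. Diabetic sedentary mice had the same injection without running, healthy trained mice ran after an injection of buffer, and healthy sedentary mice had buffer and did not run. Each group was studied after 1, 3 and 5 weeks, with tissue taken 24 h after the last bout. RNA of the 5 mice of a group and week was pooled, so each of the 12 arrays held 1 pool. The p-values here measure the spread between pools that is left once condition and week are fitted, and not that between animals. With 1 array per condition and week, that spread also holds any change over the weeks in a difference between conditions. A comparison of conditions therefore asks for a difference shared by the weeks.

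The sarcomere is the contractile unit of heart muscle. Myosin of the thick filament pulls on actin of the thin filament when calcium binds the troponin complex and tropomyosin moves aside, and the thin filaments are anchored end to end at the Z-disc. The proteins listed here are made throughout adult life in ventricular muscle, and mutations in many of their genes cause inherited cardiomyopathy in humans. Because whole cardiac muscle was measured, fewer muscle cells and less RNA per muscle cell cannot be told apart.

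The promoters of 3 of these genes are shown, picked by their week 5 and week 1 signals. Mybpc3 was the only member past the threshold in any comparison. Week 5 and week 1 signals did not overlap for Tnnc1 and did for Myl3. Whether the genes differed from each other over the weeks was not tested. The windows are the 250 bases before the transcription start in RefSeq on GRCm38.p6, at chr2:91117894-91118143 (Mybpc3), chr9:110763428-110763677 (Myl3) and chr14:31208062-31208311 (Tnnc1), each on the plus strand. Capitals mark matches to the motifs described below.
Mybpc3: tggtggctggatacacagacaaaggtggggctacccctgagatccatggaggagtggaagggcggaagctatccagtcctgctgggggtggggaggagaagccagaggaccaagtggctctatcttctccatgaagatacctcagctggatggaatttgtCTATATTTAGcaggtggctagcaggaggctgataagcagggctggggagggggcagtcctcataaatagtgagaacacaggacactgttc
Myl3: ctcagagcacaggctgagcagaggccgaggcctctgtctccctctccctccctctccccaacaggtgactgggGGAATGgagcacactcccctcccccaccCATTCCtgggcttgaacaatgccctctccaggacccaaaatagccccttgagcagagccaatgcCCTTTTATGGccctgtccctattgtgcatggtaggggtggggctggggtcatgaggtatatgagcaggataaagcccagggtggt
Tnnc1: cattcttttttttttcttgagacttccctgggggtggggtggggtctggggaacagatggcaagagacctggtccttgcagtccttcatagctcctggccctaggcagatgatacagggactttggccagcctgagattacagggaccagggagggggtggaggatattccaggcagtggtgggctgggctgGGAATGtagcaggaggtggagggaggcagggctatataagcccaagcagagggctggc
The search covered both strands for the MEF2 motif, the CArG box bound by serum response factor, and the M-CAT element CATTCC bound by TEAD factors. The capitals in Mybpc3 are a MEF2 match 90 to 81 bases before the start. Those in Myl3 are a CArG box 85 to 76 bases before the start and M-CAT matches on each strand, 177 to 172 and 149 to 144 bases before it. The capitals in Tnnc1 are an M-CAT match on the minus strand, 58 to 53 bases before the start. Over 11 promoter windows of 9 of the 10 genes, 2 held the MEF2 motif (Mybpc3 and Ttn), 1 the CArG box and 4 the M-CAT element (Tnnt2, Tpm1, Myl3 and Tnnc1). Among 32851 promoter windows of the same length, 2.92%, 1.47% and 12.6% held these motifs in the same order. A match describes letters in the window and was not tested for binding.

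The arrays held cardiac RNA by their markers. Of 10 ventricular marker genes, 9 had a probe set (Pln had none), 4 of them members, and their summed signal lay between 23716 and 32280 on the 12 arrays. Among 9 fast skeletal muscle genes the summed signal was 378 to 632, most of it from Ckm (248 to 520), a creatine kinase that heart muscle also makes, and the 8 others had signals of 0.3 to 95.8. The trimmed mean of the deposited signals was 49.98 to 49.99 on every array, a common scale. The diabetic trained array of week 3 stood apart, with a median signal of 25.4 against 16.6 to 20.4 on the other 11 arrays and a mean correlation with the rest of 0.853 against 0.94 to 0.953. Per the array records it had a run day, here the day of the scan date, and a chip lot of its own. The week 5 arrays shared a lot and run day that no other week used, and each condition had its own fluidics module, so these cannot be told apart from week 5 and from condition.

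Tnnt2 encodes cardiac troponin T, which ties the troponin complex to tropomyosin. Its signals at weeks 1, 3 and 5 were 2825, 2153 and 1795 on diabetic trained arrays, 2518, 2884 and 2200 on diabetic sedentary arrays, 2520, 2578 and 1606 on healthy trained arrays, and 2433, 2944 and 2047 on healthy sedentary arrays. The lowest signal of every condition was that of week 5, and the diabetic and healthy ranges overlapped almost wholly.

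Tnni3 encodes cardiac troponin I, the inhibitory subunit, whose detection in blood marks heart injury. Its signals were 5219, 4366 and 4030 at weeks 1, 3 and 5 on diabetic trained arrays, 4254, 4276 and 4033 on diabetic sedentary arrays, 5018, 4278 and 4414 on healthy trained arrays, and 4826, 5460 and 4204 on healthy sedentary arrays. The highest was 1.35 times the lowest over all 12 arrays. The high values were those of the healthy sedentary array of week 3 and the diabetic trained array of week 1.

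Tnnc1 encodes the calcium-binding troponin C of heart and slow skeletal muscle. It gave 3834, 2550 and 2587 at weeks 1, 3 and 5 on diabetic trained arrays, 2988, 3164 and 2741 on diabetic sedentary arrays, 3271, 2918 and 2585 on healthy trained arrays, and 3176, 3547 and 2744 on healthy sedentary arrays. Signals of week 5 were all under those of week 1, in a narrow range of 2585 to 2744.

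Tpm1 encodes alpha-tropomyosin, the coiled coil that covers the myosin-binding sites of actin. Its probe set gave 77.1, 81.0 and 67.2 on diabetic trained arrays at weeks 1, 3 and 5, 66.0, 71.8 and 65.7 on diabetic sedentary arrays, 77.8, 81.2 and 81.8 on healthy trained arrays, and 74.2, 77.3 and 81.0 on healthy sedentary arrays. Signals of different probe sets depend on their probes and do not rank the genes. Tpm1 varied least of the members, with an SD of 0.12 in log2 signal over the 12 arrays, smaller than that of all but 0.483% of the 7453 probe sets tested.

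Myl2 encodes the regulatory light chain of ventricular myosin. It gave 5136, 3875 and 3375 at weeks 1, 3 and 5 on diabetic trained arrays, 3707, 3726 and 3377 on diabetic sedentary arrays, 4386, 3639 and 3653 on healthy trained arrays, and 4245, 5295 and 3789 on healthy sedentary arrays. As with Tnni3, the healthy sedentary array of week 3 and the diabetic trained array of week 1 were the highest.

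Myl3 encodes the essential light chain of ventricular and slow muscle myosin. Its signals at the 3 weeks were 4626, 3326 and 3576 on diabetic trained arrays, 3144, 3687 and 3713 on diabetic sedentary arrays, 4115, 3626 and 4221 on healthy trained arrays, and 4164, 4421 and 3989 on healthy sedentary arrays. Diabetic sedentary arrays were all lower than healthy sedentary ones, whereas diabetic trained and healthy trained arrays overlapped.

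Mybpc3 encodes cardiac myosin-binding protein C, which sits on the thick filament and tunes cross-bridge cycling. Its signals were 3811, 2178 and 1797 at weeks 1, 3 and 5 on diabetic trained arrays, 2860, 3038 and 2376 on diabetic sedentary arrays, 3413, 2926 and 2246 on healthy trained arrays, and 2990, 3029 and 2406 on healthy sedentary arrays. Each condition had its lowest signal at week 5, and the highest of the 12 signals was 2.12 times the lowest.

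Actn2 encodes the muscle alpha-actinin that crosslinks actin at the Z-disc. It gave 49.7, 100.7 and 35.2 at weeks 1, 3 and 5 on diabetic trained arrays, 49.1, 60.9 and 47.3 on diabetic sedentary arrays, 44.5, 46.6 and 25.0 on healthy trained arrays, and 41.4, 61.1 and 53.6 on healthy sedentary arrays. The highest value was on the diabetic trained array that stood apart, and the next was 61.1.

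Tcap encodes titin-cap (telethonin), which joins the ends of titin at the Z-disc. It gave 63.6, 83.5 and 31.4 at weeks 1, 3 and 5 on diabetic trained arrays, 30.9, 13.3 and 44.4 on diabetic sedentary arrays, 27.1, 35.7 and 38.2 on healthy trained arrays, and 30.2, 56.0 and 33.8 on healthy sedentary arrays. The value of 13.3 was below 13.8, the highest signal among 19 bacterial and yeast control probe sets other than the spiked ones. Tcap had the widest spread of the members, an SD of 0.68 in log2 signal, and 86.1% of tested probe sets had a smaller one. For Tnni3, Myl3, Tnnc1, Myl2, Tnnt2 and Mybpc3, each with a mean signal above 1000 and called the 6 bright members below, this SD was 0.15 to 0.31, under the median of 0.40 over all tested probe sets. These 6 ranked between 1 and 78 in signal among the 12422 probe sets on every array, with Tnni3 the brightest on 10 of 12, and whether differences are compressed at this end of the arrays' range was not tested.

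**Figure D1:**
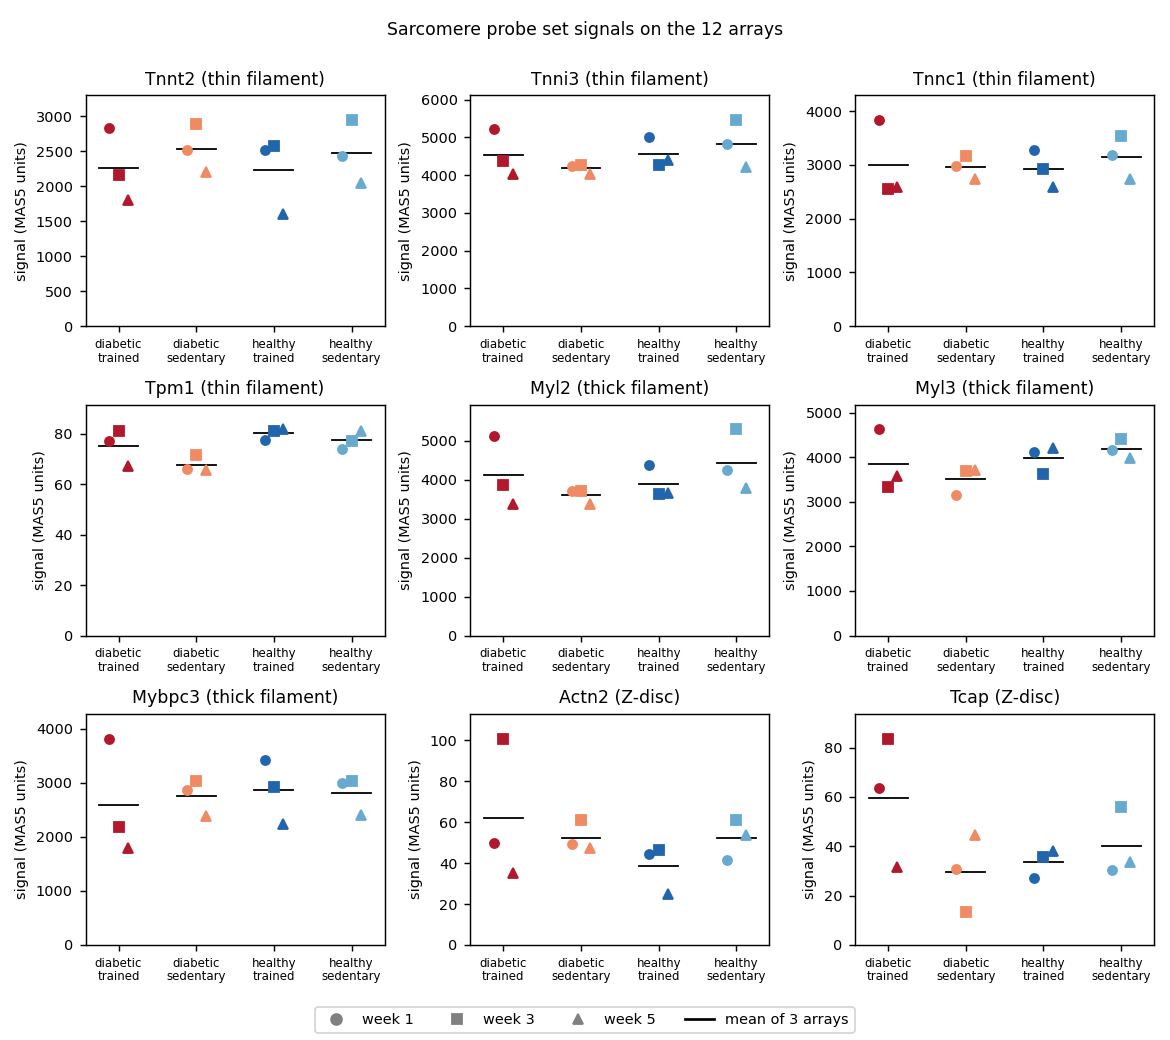
MAS5 signal (vertical axes, linear from 0) of the 9 sarcomere probe sets by condition, with symbols for weeks 1, 3 and 5 and a bar at the mean of 3 arrays. Week 5 (triangles) was lowest in every condition for Tnnt2 and Mybpc3, while Actn2 and Tcap had single high values on the diabetic trained array of week 3 (100.7 and 83.5).

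Diabetes was set against health over both training states, 6 arrays against 6, to ask whether the adult contractile genes moved with the disease. None of the 9 members passed the threshold (limma with week in the model, Benjamini-Hochberg adjusted p under 0.05 over 7453 probe sets), and none had an unadjusted p under 0.05. Over all tested probe sets 0.765% passed adjusted and 11.8% unadjusted. The members' median log2 difference was -0.11, with 6 of 9 below 0, beside a median of -0.02 over all tested probe sets. Among markers of other cells, all 6 endothelial genes were lower in the fit (median -0.23). Aqp1 was past the threshold at -1.29, and the other 5 were not. The endothelial genes summed to 425 to 586 on diabetic trained and 488 to 612 on diabetic sedentary arrays. On healthy trained arrays the sum was 716 to 830, and on healthy sedentary arrays 678 to 843. Of the fast skeletal genes Ckm was past the threshold at -0.53 (list median -0.03). The part of these markers in the members' values was not tested.

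Among thin filament genes, Tnnt2 averaged 2396 ± 423 on diabetic and 2355 ± 466 on healthy arrays (SD, n = 6 each), a log2 difference of 0.03 (SE 0.11, adjusted p = 0.936). Tnni3 averaged 4363 ± 441 on diabetic and 4700 ± 490 on healthy arrays, a difference of -0.11 (SE 0.10, adjusted p = 0.751). Tnnc1 averaged 2977 ± 482 and 3040 ± 357 on diabetic and healthy arrays, a difference of -0.04 (SE 0.11, adjusted p = 0.926). These differences were within the spread between arrays. Tpm1 was lower on the diabetic array in 6 of 6 week-matched pairs, 71.5 ± 6.39 on diabetic against 78.9 ± 2.97 on healthy arrays, yet the difference of -0.15 (SE 0.11) did not pass (adjusted p = 0.665). The trained pairs of weeks 1 and 3 were near ties, at -0.01 and 0.00 in log2 signal.

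Thick filament genes were likewise not past the threshold. Myl3 averaged 3679 ± 514 on diabetic and 4089 ± 268 on healthy arrays, a difference of -0.16 (SE 0.12, adjusted p = 0.655), and was lower in 5 of 6 pairs. Myl2 averaged 3866 ± 654 on diabetic and 4168 ± 634 on healthy arrays (-0.11, SE 0.12, adjusted p = 0.773). Mybpc3 averaged 2677 ± 716 on diabetic and 2835 ± 433 on healthy arrays (-0.11, SE 0.13, adjusted p = 0.798). For the thin and thick filament genes alike, the 95% intervals of the diabetic over healthy ratio lay within 0.75-fold and 1.21-fold. Larger shifts in the mean over the weeks lay outside these intervals, and smaller ones could not be told from no shift.

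The Z-disc genes were measured less precisely. Actn2 averaged 57.2 ± 22.8 on diabetic and 45.4 ± 12.2 on healthy arrays, a difference of 0.30 (SE 0.19, 95% interval -0.11 to 0.72, adjusted p = 0.598), and 0.16 without the diabetic trained array of week 3. Tcap averaged 44.5 ± 25.4 on diabetic and 36.8 ± 10.2 on healthy arrays, a difference of 0.09 (SE 0.33, 95% interval -0.63 to 0.81, adjusted p = 0.94). Without that same array the Tcap difference was -0.09. With each array left out in turn it ran from -0.17 to 0.44, so its direction rested on single arrays.

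**Figure D2:**
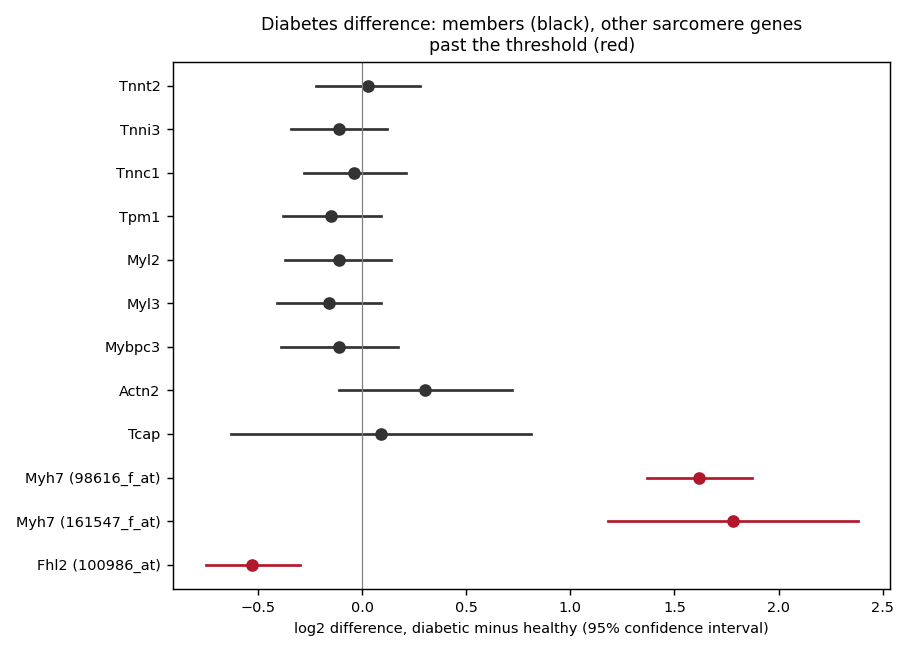
Log2 difference, diabetic minus healthy over both training states, with 95% confidence intervals, for the 9 members (black) and the probe sets of other sarcomere genes past the threshold (red). All member intervals include 0, while both Myh7 probe sets lie above 1 (1.62 and 1.78) and Fhl2 lies at -0.53.

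Within sedentary mice, diabetic hearts had lower signals of several members than healthy hearts at all weeks, but no difference passed the threshold. Tpm1 (65.7 to 71.8 on diabetic sedentary against 74.2 to 81.0 on healthy sedentary arrays), Myl2 (3377 to 3726 against 3789 to 5295) and Myl3 (3144 to 3713 against 3989 to 4421) did not overlap between the groups, 3 of 9 members. Over all tested probe sets 6.84% were lower without overlap. The fitted differences were -0.19 for Tpm1 (SE 0.15, adjusted p = 0.9), -0.29 for Myl2 (SE 0.17, adjusted p = 0.792) and -0.26 for Myl3 (SE 0.16, adjusted p = 0.835). No member passed, and 0.0537% of all probe sets did; at an unadjusted p under 0.05 it was no member and 7.33% of probe sets. The members' median was -0.19, against -0.01 over all tested probe sets, and under quantile normalization it was 0.00. The 6 tested fast skeletal markers were also all lower on diabetic sedentary than on healthy sedentary arrays in the fit (median -0.50, none past the threshold), with summed signals of 378 to 400 and 560 to 632 over the 9 measured; no marker of that list was at 0, and their part in the members' values was not tested.

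Within trained mice, the 6 bright members had fitted differences of -0.20 (Mybpc3) to 0.07 (Myl2), diabetic trained against healthy trained. The Z-disc genes averaged higher in diabetic trained hearts, and neither passed. Actn2 was higher on the diabetic array by 0.16, 1.11 and 0.49 in log2 signal at weeks 1, 3 and 5, with a fitted difference of 0.59 (SE 0.27, unadjusted p = 0.0499, adjusted p = 0.471). Tcap differed by 1.23, 1.23 and -0.28 at the same weeks, and by 0.72 in the fit (SE 0.46, adjusted p = 0.559). Both week 3 values use the diabetic trained array that stood apart, and without it the fitted differences were 0.30 for Actn2 (SE 0.24, adjusted p = 0.789) and 0.37 for Tcap (SE 0.49, adjusted p = 0.883). Of 6 tested fast skeletal markers 5 were above 0 in this comparison (median 0.47, none past the threshold), with summed signals of 484 to 532 on diabetic trained and 497 to 587 on healthy trained arrays. No member and 0.0268% of all probe sets passed, and 1 member (Actn2) and 10.5% of probe sets had an unadjusted p under 0.05.

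Training left no member past the threshold, nor any other probe set (0.0%), in trained against sedentary arrays over both disease states. At an unadjusted p under 0.05 there was again no member, and 3.45% of all probe sets. Member differences ran from -0.18 for Actn2 to 0.43 for Tcap, with a median of 0.00 against -0.02 over all probe sets. Tpm1 was higher on the trained array in 6 of 6 week-matched pairs, 77.7 ± 5.49 on trained and 72.7 ± 6.12 on sedentary arrays (SD, n = 6 each), by 0.10 (SE 0.11, adjusted p = 0.998). The pairs of week 5 were near ties, at 0.03 in diabetic and 0.01 in healthy mice. Tnnt2 averaged 2246 ± 478 on trained and 2504 ± 359 on sedentary arrays, a difference of -0.17 (SE 0.11, adjusted p = 0.998).

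Split by disease state, healthy trained against healthy sedentary hearts gave a members' median of -0.11 against 0.00 over all probe sets, with 7 of 9 members below 0. Diabetic trained against diabetic sedentary hearts gave 0.11 against -0.04, with 6 of 9 above 0. The signs of these medians rested on the scaling. With spiked-control scaling, described below, the median for healthy mice was 0.02, where all probe sets had 0.13. For diabetic mice it was 0.00 with median centring, -0.01 with quantile normalization and -0.40 with spiked-control scaling. All probe sets then had medians of -0.15, -0.07 and -0.55. Relative to all probe sets, the members' median in healthy mice was -0.11 as deposited and -0.08 with quantile normalization. In diabetic mice these relative values were 0.15 and 0.06. No member and 0.0% of probe sets passed in either. In healthy mice no member and 2.04% of probe sets had an unadjusted p under 0.05, and in diabetic mice 1 member (Tcap) and 7.15%. Tcap had the largest member difference in diabetic mice, 1.06 (SE 0.46, unadjusted p = 0.0415, adjusted p = 0.665), with 63.6 against 30.9 at week 1, 83.5 against 13.3 at week 3 and 31.4 against 44.4 at week 5 on trained and sedentary arrays, so the order turned at week 5. The week 3 pair set the array that stood apart against a signal of 13.3 that was below the highest of the control probe sets. Without that diabetic trained array the difference was 0.71 (SE 0.49, adjusted p = 0.935), and without the diabetic sedentary array of week 3 it was 0.36 (SE 0.36, adjusted p = 0.999). In the interaction, which asks whether the diabetes difference depends on training, 7 of 9 members were above 0, the median was 0.18 against -0.06 over all probe sets, and no member and 0.0% of probe sets passed (unadjusted, no member and 4.31%). That median too rested on the scaling, at 0.04 with median centring, 0.05 with quantile normalization and -0.46 with spiked-control scaling. All probe sets then had -0.2, -0.09 and -0.70. Relative to all probe sets, the members' median in the interaction was 0.24 as deposited and 0.14 with quantile normalization. The 6 tested fast skeletal markers were all above 0 in the interaction (median 0.89) and for diabetic trained against diabetic sedentary hearts (median 0.32), none past the threshold, and their part was not tested. Tcap had 1.27 in the interaction (SE 0.66, adjusted p = 0.859) and 0.57 to 0.92 without 1 of the diabetic arrays of week 3, Actn2 0.57 (SE 0.38, adjusted p = 0.859) and Myl2 0.36 (SE 0.23, adjusted p = 0.859).

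Between weeks, Mybpc3 was lower at week 5 than at week 1 in 4 of 4 conditions, by 0.27 to 1.08 on the log2 scale, and was the only member past the threshold. It averaged 2206 ± 281 at week 5 and 3269 ± 432 at week 1 (SD, n = 4 each), a difference of -0.57 (SE 0.16, 95% interval -0.91 to -0.22, a 0.675-fold level, adjusted p = 0.0344), and week 3 lay between at 2793 ± 413. Over all tested probe sets 15.4% passed, and 6.9% passed with a lower level at week 5, so 1 of 9 members is near the background. The call rested on single arrays and on the scaling: the adjusted p was 0.0518 to 0.132 when any healthy trained array, the diabetic trained array of week 1 or 5, or the healthy sedentary array of week 5 was left out, and 0.269 when arrays were centred on their medians (-0.40).

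The troponins and Myl2 had smaller differences of the same sign. Tnnt2 averaged 1912 ± 264 at week 5 and 2574 ± 172 at week 1 (SD, n = 4 each), lower in 4 of 4 conditions by -0.44 (SE 0.14, adjusted p = 0.0534). Tnnc1 averaged 2664 ± 90.3 at week 5 and 3317 ± 364 at week 1 (-0.31, SE 0.14, adjusted p = 0.145). Tnnt2, Tnnc1 and Mybpc3 had week 5 signals all below those of week 1, 3 of 9 members, where 16.4% of all tested probe sets did. Myl2 (-0.29, SE 0.14, adjusted p = 0.179) and Tnni3 (-0.21, SE 0.13, adjusted p = 0.275) were lower in 4 of 4 conditions but overlapped.

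Myl3, Tpm1 and Tcap had week 5 differences near 0, of -0.04 (SE 0.14), 0.00 (SE 0.13) and 0.04 (SE 0.40). The members' median was -0.25 against -0.10 over all probe sets, and 3 members (Mybpc3, Tnnt2 and Tnnc1) and 32.6% of probe sets had an unadjusted p under 0.05. At week 3 against week 1 no member and 0.0% of probe sets passed, and unadjusted no member and 7.11%. Actn2 was then higher in 4 of 4 conditions, 67.3 ± 23.3 at week 3 and 46.2 ± 3.94 at week 1, by 0.49 (SE 0.23, adjusted p = 0.688), and by 0.27 (SE 0.20, adjusted p = 0.848) once the outlying diabetic trained array, which had the largest step, was left out. Every week 5 array shares its chip lot and run day with the others of that week, so the week 5 differences cannot be told apart from them. The week 1 arrays shared a run day, and so did those of week 3 other than the diabetic trained one. Week 3 differences therefore cannot be told apart from run day either. The ratio of 3′ to 5′ signal, a sign of RNA quality, was 1.11 for Gapdh at week 5 and 1.20 at week 1, and for Actb 2.27 at week 5 and 1.97 at week 1, and its part in these differences was not tested. Of the markers of other cells, Myh11 of smooth muscle (-1.03, list median -0.69), Col1a1 of fibroblasts (-1.36, list median -0.34), Lipe of adipocytes (-0.92, list median -0.22) and Scgb1a1 of lung (-1.65, list median -0.88) fell past the threshold at week 5, and Kdr of endothelium rose (0.64, list median 0.07). Their part was not tested either.

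**Figure D3:**
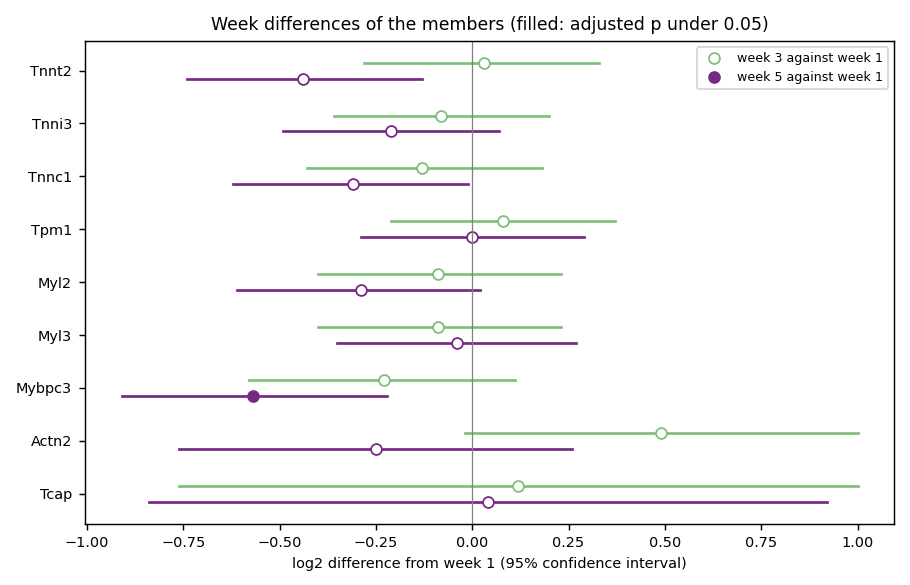
Log2 difference from week 1 over all 4 conditions, with 95% confidence intervals, at week 3 (green) and week 5 (purple); a filled point has an adjusted p under 0.05. Mybpc3 at week 5 (-0.57) is the single filled point, and Tpm1, Myl3 and Tcap lie near 0 at week 5.

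On 4 arrays all 6 bright members were above their own means, on 3 all were below, and on 5 they lay on both sides. Their mean log2 deviation from their own means was highest on the diabetic trained array of week 1 (0.33) and the healthy sedentary array of week 3 (0.27), and lowest on the diabetic trained array of week 5 (-0.28). The 9 probe sets of the bacterial transcripts BioB, BioC and BioDn and of the phage transcript CreX, control transcripts added to every sample in fixed amounts, were highest on the same arrays, by 0.49 and 0.59. Diabetic sedentary arrays had spiked-control deviations of -0.36 to -0.20, against -0.21 to 0.59 on healthy sedentary arrays. By week the spiked controls averaged 0.07, 0.10 and -0.17 and the bright members 0.14, 0.04 and -0.17 at weeks 1, 3 and 5.

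With every array scaled to those controls instead, the median of all probe sets itself shifted by over 0.1 in most comparisons, to 0.37 for diabetic sedentary against healthy sedentary hearts and to 0.14 for week 5 against week 1. The members' medians were 0.18 and -0.01 in these comparisons, against -0.19 and -0.25 as deposited. Median centring and spiked-control scaling move all probe sets of an array alike, so they cannot change the members' median relative to that of all probe sets, which was -0.19 and -0.15. Quantile normalization can, and gave -0.01 and -0.07. No member passed in any comparison under the spiked-control scaling.

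**Figure D4:**
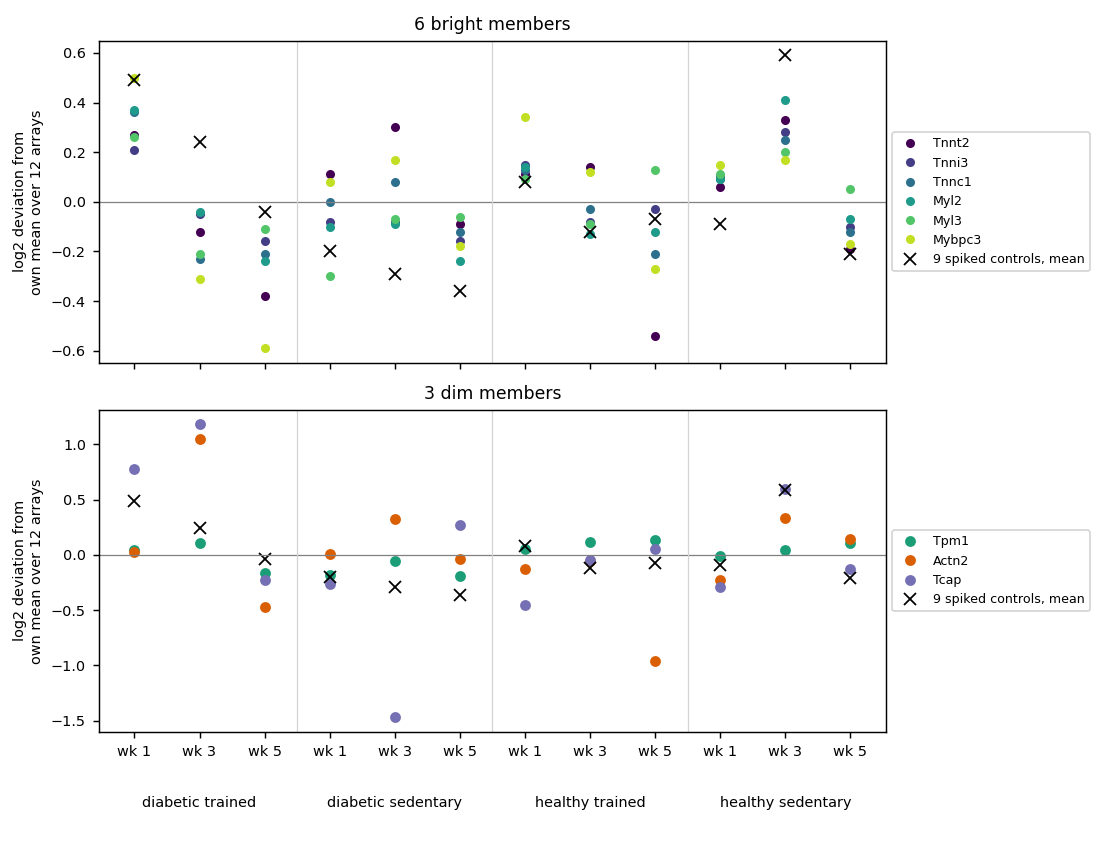
Log2 deviation of each member from its own mean over the 12 arrays (dots), with the mean of the 9 spiked-control probe sets (crosses), by condition and week. The mean of the 6 bright members (upper panel) is highest where the crosses are highest, at diabetic trained week 1 and healthy sedentary week 3, while Actn2 and Tcap (lower panel, wider axis) spread over more than 1 log2 unit.

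Thin filament genes were compared with thick filament and Z-disc genes within each array, so that a shift common to all probe sets of an array drops out. A shift that depends on signal does not drop out. Tpm1 and both Z-disc genes had far lower signals than the 6 bright members, and the part of this was not tested. The thin minus thick difference in mean log2 deviation was small in all groups: 0.02 ± 0.15 on diabetic trained, 0.05 ± 0.03 on diabetic sedentary, -0.03 ± 0.09 on healthy trained and -0.03 ± 0.02 on healthy sedentary arrays (SD, n = 3 each). With the Z-disc genes added to the thick filament side it was -0.16 ± 0.25, 0.09 ± 0.19, 0.09 ± 0.02 and -0.02 ± 0.10 in the same order of groups. The week-matched difference of this measure, diabetic minus healthy, averaged -0.07 ± 0.30 (SD, n = 6), within the spread between pairs, and 0.02 without the diabetic trained array of week 3. On that array the Z-disc genes deviated by 1.11 and the thick filament genes by -0.19. These class values are descriptions and were not tested.

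Other sarcomere genes were taken from a list of 64 that was drawn up with earlier results of these data known. Of 45 with a probe set and 38 tested, 1 was higher in diabetic hearts, 1 was lower and 36 did not pass, with a median of -0.09, beside the background of 0.765% of all probe sets. The one that rose was Myh7, the slow beta-myosin heavy chain that is low in the adult mouse ventricle and is raised in many forms of heart stress. Its brighter probe set averaged 3177 ± 701 on diabetic and 1049 ± 285 on healthy arrays (SD, n = 6 each) with no overlap, a difference of 1.62 (SE 0.11, 95% interval 1.37 to 1.87, adjusted p = 7.95e-05). A second, dimmer probe set gave 1.78 (SE 0.28, adjusted p = 0.019). Both carry identifiers of sets that can share probes with related genes, so signal of a near relative may be included. Over 25 alternatives the brighter set gave 1.55 to 1.67 and missed the threshold in 1, without week 5 (adjusted p = 0.0506), and the dimmer gave 1.17 to 2.10 and missed it in 10.

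Myh7 rose in sedentary mice by 1.53 (SE 0.16, adjusted p = 0.00299, diabetic sedentary against healthy sedentary) and in trained mice by 1.70 (SE 0.16, adjusted p = 0.00197, diabetic trained against healthy trained). Among thick filament members the 95% interval of the diabetes difference reached at most 0.37 in sedentary mice (Mybpc3) and 0.43 in trained mice (Myl2). Over both training states it reached at most 0.17 (Mybpc3), where the Myh7 interval was 1.37 to 1.87. Fhl2, a LIM-domain protein that binds titin and is linked to the Z-disc and I-band, averaged 1012 ± 171 on diabetic and 1449 ± 171 on healthy arrays and fell by 0.53 on the log2 scale (SE 0.10, adjusted p = 0.0455). This call was lost in 18 of 25 alternatives, among them median centring and 10 of the 12 in which 1 array was left out, with differences of -0.59 to -0.42 (adjusted p 0.0064 to 0.427). Myom2, an M-band protein that crosslinks thick filaments, had the next smallest p with a difference of 0.71 (SE 0.16, adjusted p = 0.0741), which did not pass. By class, 0 of 7 other thin filament genes passed (median -0.17), 1 of 11 thick filament and M-band genes (median -0.08) and 1 of 20 Z-disc genes and their links (median -0.08). Over the 9 members none passed, and calls this few are given as counts with no contrast drawn between the classes.

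At week 5 against week 1 the same list had 1 higher, 5 lower and 32 not past the threshold of 38, with a median of -0.23. The lower ones were Tpm2, Pdlim7, Ldb3, Myh7 and Cryab. Tpm2, the beta-tropomyosin, had -0.79 (SE 0.23, adjusted p = 0.0371). Pdlim7 had -0.77 (SE 0.19, adjusted p = 0.0204), but 0.08 (SE 0.39, adjusted p = 0.907) on its other tested probe set. Ldb3, the Z-disc protein also called cypher, had -0.62 (SE 0.15, adjusted p = 0.0241). Myh7 had -0.52 (SE 0.14, adjusted p = 0.0306), and -0.24 (SE 0.34, adjusted p = 0.648) on its dimmer probe set. Cryab, the desmin chaperone, had -0.45 (SE 0.12, adjusted p = 0.0327). Capza1, a subunit of the protein that caps actin filaments, was higher by 0.62 (SE 0.14, adjusted p = 0.0179). The background for these calls is the 15.4% given above.

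**Figure D5:**
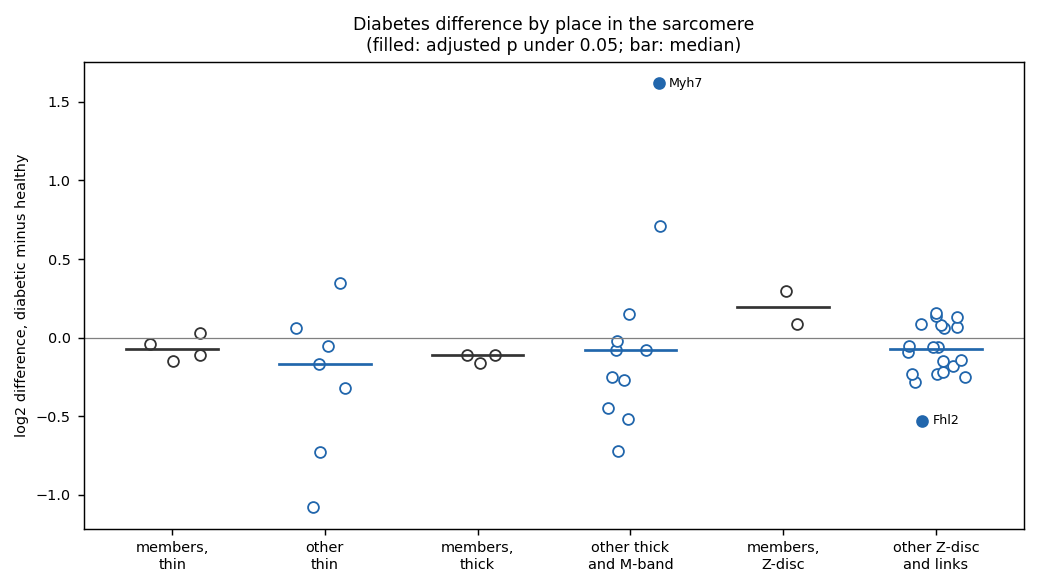
Log2 difference, diabetic minus healthy, of the members (black) and the other sarcomere genes tested (blue) by place in the sarcomere; bars are medians and filled points have an adjusted p under 0.05. The members lie between -0.16 and 0.30, and Myh7 (1.62) and Fhl2 (-0.53) are the filled points.

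The genes most like the members were found by the root mean square difference, over the 12 arrays, between a gene's centred log2 profile and the mean profile of the 9 members, among 5648 genes. The 5 nearest were Cox6a2 (0.085), the heart and skeletal muscle form of a cytochrome c oxidase subunit, Bscl2 (0.090), Stk16 (0.092), Sec24c (0.097) and Poldip2 (0.107), where the median gene had 0.399. Of the members themselves Myl2 had 0.098, Tnni3 0.103 and Tcap 0.564. Without the diabetic trained array of week 3, Cox6a2 (0.081) was again nearest, followed by Mdh2 (0.090), Bscl2 (0.092), Neu1 (0.093) and Stk16 (0.096). The measure favours genes that vary little, and it shares the arrays and their scaling.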

How the data were processed

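The deposited values are linear intensities, 1 signal per probe set for each of 12 pooled samples. MAS5 is named in the submitters' processing notes, and no source used here gives its version. A text record per array was read for scan date, chip lot and fluidics module alone. Run day means the day of that scan date, and the day of hybridization was not read. Symbols came from the array annotation, updated through gene identifiers in RefSeq (GRCm38.p6); 10833 probe sets had 1 symbol, 396 several and 1193 none.

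Deposited intensities under 4.1, the 20th percentile, were raised to that value before log2 transformation. Probe sets with a mean at or above the 40th percentile (geometric mean 11.6) were tested, 7453 in all. limma 3.58.1 in R 4.3.3 fitted condition and week to all 12 arrays (eBayes with an intensity trend, 6 residual degrees of freedom), with Benjamini-Hochberg adjustment over all tested probe sets of each comparison and a threshold of 0.05; the procedure was tested on simulated data. Differences are on the log2 scale, and means and SDs of signals on the linear scale. Week was a block because the labels give it as shared by the arrays of a week, which were also scanned on the same day except for 1. The number of arrays limits precision.

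All member genes were named. Of the other sarcomere genes those past the threshold were named, with the 3 of smallest p for diabetes, and the class means, likeness and motifs are descriptions. Markers of ventricular and fast skeletal muscle were used as a check of the tissue, and those of 8 other cell types or tissues for cells that a sample could also hold. The members and lists were chosen with earlier results of these data known. Alternatives were the week block left out, 3 other scalings, filters, floors and pseudocount, no trend, array weights, and arrays or weeks left out. Python 3.11.15 with pandas 2.3.3, numpy 2.4.6 and matplotlib 3.10.9 made summaries and figures.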

Additional observations from a re-analysis of the deposited data

Results flagged for a closer look

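In each group of 4 or 6 arrays, a member's highest or lowest signal was checked for a gap to the nearest of the others that was large for the group's range. Of 63 such groups 7 held one. Chance gives about 1 in 20 for a single group, but these groups share arrays and are not independent. An excess over chance was not tested. Tnni3 had 5218.6 on the diabetic trained array of week 1, the next of the 6 diabetic arrays being 4366.2, and Myl2 had 5136.1 there with 3875.0 next. On the healthy sedentary array of week 3, Tnni3 had 5460.1 with 4366.2 next among the 4 arrays of that week, and Myl2 had 5294.6 with 3875.0 next. These are the arrays on which the spiked controls were also highest, at 0.49 and 0.59 above their mean in log2. Mybpc3 had its lowest week 3 signal, 2177.9, on the diabetic trained array, with 2925.7 next. The lowest Tpm1 signal of the 6 trained arrays was 67.2, on the diabetic trained array of week 5, with 77.1 next. Tcap had 63.6 on the diabetic trained array of week 1, with 30.9 next in that week.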

How the results depend on the processing

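No member passed the threshold in any of the 8 comparisons other than week 5 against week 1, under any alternative run. For week 5 against week 1, where 1 passed, the count was 0 with arrays centred on their medians, without the filter, without the intensity trend and with scaling to the spiked controls, 2 with the stricter filter, and 3 with quantile normalization or array weights. Leaving out each array in turn gave 0 to 3, the 3 when the outlying week 3 array of diabetic trained mice was dropped. The week 5 difference of Mybpc3 was -0.67 to -0.33 over the 21 alternatives (adjusted p 0.00489 to 0.337), and no longer passed in 10 of them. That of Tnnt2 was -0.51 to -0.20 (adjusted p 0.00486 to 0.617), and passed in 4. Directions near 0 turned for diabetes over both training states. Tnnt2 was -0.01 with median centring, -0.01 without week 1, -0.02 without week 5 and -0.04 to 0.10 with each array left out. Tnnc1 was 0.01 with quantile normalization, 0.03 with array weights, 0.02 with spiked-control scaling, 0.04 without week 3 and -0.12 to 0.04 with each array left out. Tcap was -0.18 without week 1 and -0.17 to 0.44 with each array left out. The cause was not tested. Without the replicate block (week left out of the model), 0 members passed in the 7 comparisons it could be run for, and probe sets past the threshold numbered 10 in place of 57 for diabetes and 1 in place of 4 for diabetic sedentary against healthy sedentary hearts. For diabetes the 57 probe sets past the threshold were 8 with median centring, 6 without the filter, 9 without the trend, 192 with array weights, 7, 38 and 0 without weeks 1, 3 and 5, and 5 to 153 with 1 array left out. The spiked-control scaling, the following of Mybpc3, Tnnt2, Myh7 and Fhl2, and the values of Actn2, Tcap and the classes without single arrays were chosen after seeing the data. A mean over all probe sets of a gene was not run, since each member has 1.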

Other observations

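A pair of further sarcomere genes, singled out after their values were seen, had diabetes differences that were large but did not pass the threshold. Acta1, the skeletal alpha-actin that is co-expressed with cardiac actin in the thin filament, had a log2 difference of -1.08, diabetic against healthy (SE 0.26, limma adjusted p = 0.0898). It was -1.46 (SE 0.37, adjusted p = 0.218) for diabetic sedentary against healthy sedentary hearts and -0.69 (SE 0.37, adjusted p = 0.512) for diabetic trained against healthy trained hearts. Tnnt1, the slow skeletal troponin T, had -0.73 (SE 0.17, adjusted p = 0.0805) on its brighter probe set and -0.21 (SE 0.16, adjusted p = 0.672) on the other, so its probe sets differed in size. The cardiac counterparts of these genes were closer to 0, with -0.17 (SE 0.12, adjusted p = 0.637) for the brighter probe set of Actc1, cardiac actin, and 0.03 for Tnnt2. The remaining tested genes of the thin filament list went both ways. Tnni1 had 0.35 (SE 0.16, adjusted p = 0.42), Tnnc2 0.06, Tpm3 -0.05 and Tpm2 -0.32. Smyd1, of the thick filament and M-band list, had -0.72 (SE 0.18, adjusted p = 0.1). Atrial marker genes (Myl4, Myl7, Nppa and Sln) were checked as signs of another chamber. Of 4 atrial genes 3 were tested and none passed for diabetes (median -0.45), and their summed signal was 2093 to 3327 on diabetic trained, 2468 to 3609 on diabetic sedentary, 2845 to 3856 on healthy trained and 2684 to 4530 on healthy sedentary arrays. The remaining marker lists are given for the comparison of diabetic with healthy hearts, with none past the threshold. Ventricular genes had a median of -0.11 (9 tested), smooth muscle genes -0.29 (4), fibroblast genes 0.01 (5), macrophage genes -0.03 (4), adipocyte genes 0.51 (5), lung genes -0.60 (2) and red cell genes -0.01 (2). The adipocyte genes summed to 267 to 386 on diabetic trained, 243 to 332 on diabetic sedentary, 193 to 238 on healthy trained and 182 to 248 on healthy sedentary arrays. The lung genes summed to 26.9 to 56.1, 37.3 to 47.2, 29.8 to 50.5 and 41.0 to 241 in the same order of groups.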
